A study of Mus musculus with 6 samples.

Results

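The genes described here acidify the lysosome, line its membrane or digest protein inside it. They were chosen by name: every gene whose symbol starts with Atp6v, is Lamp followed by a digit, or is Cts followed by 1 letter. That gave 44 of the 38924 genes in the deposited tables: 13 genes of the V1 sector and 9 of the V0 sector of the vacuolar ATPase (V-ATPase), 4 Lamp genes and 18 cathepsins. The question was whether this set is higher as a whole in ILT3+ than in ILT3- CD4+CD25+ T cells. ILT3, encoded in the mouse by Lilrb4, is an inhibitory receptor best known from antigen-presenting cells.

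The V-ATPase is a rotary proton pump. Its V1 sector lies in the cytosol and splits ATP, and its V0 sector lies in the membrane and passes protons, so that endosomes and lysosomes become acidic. LAMP proteins are the heavily glycosylated proteins that coat the inner face of the lysosomal membrane. Cathepsins are proteases, most of them active at acid pH, and are made as inactive precursors. In antigen-presenting cells they trim antigens and the invariant chain of MHC class II, and in lymphocytes some act in secretory granules.

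Both groups were CD4+CD25+ T cells of untreated WT mice, syngeneic animals of both sexes aged 10 to 16 weeks, from spleen and mesenteric lymph nodes. There were 3 ILT3+ and 3 ILT3- samples. CD25 is the interleukin-2 receptor alpha chain, which regulatory T cells (Tregs) carry and activated T cells can carry too, so the gate is not Treg-specific. The labels do not say whether samples came from separate or pooled animals, and p-values therefore cover only the variation among these samples, part of which may be technical.

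Total gene reads were 10768217 to 11960289 in ILT3+ libraries and 9334370 to 13648274 in ILT3- libraries. Levels are given as CPM, the reads of a gene scaled to library size with TMM factors. Lilrb4 had 304, 284 and 407 CPM in ILT3+ samples 1, 2 and 3, and 3.24, 4.32 and 5.81 CPM in ILT3- samples 1, 2 and 3, as the sort labels say. The 6 T cell and Treg markers summed to 4353 to 5217 CPM in ILT3+ samples and 4219 to 5417 CPM in ILT3- samples. Cd3e had 843, 604 and 671 CPM in ILT3+ samples, against 917, 619 and 877 CPM in ILT3- samples.

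ILT3+ sample 1 stood apart in markers of macrophages, cells rich in lysosomes. The 17 macrophage markers summed to 1403, 175 and 148 CPM in ILT3+ samples 1, 2 and 3, and to 95.3, 86.0 and 75.9 CPM in ILT3- samples. Reads were found for 16 of the 17 in ILT3+ samples and for all 17 in ILT3- samples. Axl, a receptor kinase on this list, made up most of the sum in 5 of the 6 libraries, with 248, 149 and 119 CPM in ILT3+ samples and 57.3, 74.4 and 69.1 CPM in ILT3- samples. Without Axl, a sum chosen after seeing the data, the other 16 summed to 1156, 26.7 and 28.1 CPM in ILT3+ samples, against 38, 11.5 and 6.76 CPM in ILT3- samples. ILT3- sample 1 then lay above ILT3+ samples 2 and 3. The defining gene Csf1r had 266, 2.25 and 0.399 CPM in ILT3+ samples, against 3.24, 0.629 and 0.218 CPM in ILT3- samples. The 10 dendritic cell markers, 8 of them with reads in ILT3+ and 7 in ILT3- samples, summed to 66.9, 70.9 and 88.2 CPM in ILT3+ samples and to 6.37, 13.4 and 15.2 CPM in ILT3- samples. Of their defining genes, Zbtb46 had 11.8, 25.7 and 36.0 CPM in ILT3+ samples, against 1.44, 9.82 and 10.5 CPM in ILT3- samples, and Flt3 had 1.29 to 2.25 CPM in ILT3+ samples, against 1.18 to 2.52 CPM in ILT3- samples. edgeR called 3 of the 6 tested dendritic cell markers, all higher in ILT3+ cells, against 2.31% of all tested genes. Markers abundant in ILT3+ samples alone pass the read filter through that group, so this count is no test of the list. The chemokine Ccl22 had 9.17 to 10.4 CPM in ILT3+ samples and 0 reads in ILT3- samples (adjusted p = 0.0110 by edgeR). The transcription factor Batf3 had 13 to 14.8 CPM in ILT3+ samples and 0 to 0.363 CPM in ILT3- samples (adjusted p = 0.0150 by edgeR). The actin-bundling protein Fscn1 had 14.6 to 23.0 CPM in ILT3+ samples and 0.314 to 2.04 CPM in ILT3- samples (adjusted p = 0.0311 by edgeR). All 6 B cell markers had reads, and their sums were 30.3 to 70.4 CPM in ILT3+ samples and 22.0 to 29.9 CPM in ILT3- samples. The defining gene Pax5 had 3.28, 0.965 and 0.638 CPM in ILT3+ samples, against 2.04, 0.157 and 0.436 CPM in ILT3- samples, and the groups overlapped. All 8 markers of CD8 and NK cells had reads, with sums of 69.5 to 151 CPM in ILT3+ samples and 27.3 to 114 CPM in ILT3- samples. Neutrophil markers were at 0.643 to 1.13 CPM in ILT3+ samples and 0.471 to 3.48 CPM in ILT3- samples in sum, with Elane at 0 in all 6 libraries. In bulk samples, fewer cells of a type and less RNA per cell cannot be told apart. The part of these other cell types in the results was not tested, and results that rest on sample 1 are also given without both samples numbered 1.

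Most of the set did not pass the test. Of the 44 genes, 32 had enough reads for a test: 10 of V1, 7 of V0, 2 LAMP genes and 13 cathepsins. In edgeR's quasi-likelihood test with Benjamini-Hochberg adjustment over all 13694 tested genes, 1 of the 32 was called at an adjusted p under 0.05. That gene was Ctsh, and it was higher in ILT3+ cells. The share called among all tested genes was 2.31% (1.96% called higher), and 1 of 32 members is 3.13%. On exon reads alone Ctsh was again the 1 member called, against 2.05% of all genes. With the sample number as a block, Ctsh, Atp6v0d2 and Ctsz were called higher, 9.38% of the 32 members, against 6.81% of all genes. No member was called lower in any of these fits, and 6 of the 32 members (18.8%), all higher in ILT3+ cells, were at an unadjusted p under 0.05, against 13.8% of all tested genes. DESeq2 called 3 members, against 7.08% of all genes it tested, and limma voom called 0, against 2.31%.

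Most estimates lay slightly above zero. The log2 fold change of ILT3+ over ILT3- cells was positive for 26 of the 32 members, or 81.3%, against 48.0% of all tested genes. Its median was 0.16 among the members and -0.02 among all tested genes. Without both samples numbered 1 it was positive for 20 of 32, with a median of 0.12 against 0.00 for all genes. On exon reads of all samples the median among the members was 0.25, and that of all genes is not given here. The CPM ranges of the groups did not overlap for 7 of the 32 members, or 21.9%, all 7 of them higher in ILT3+ samples. Among all tested genes 20.2% did not overlap, and 11.4% were higher without overlap. Those 7 were Atp6v0d2 of the V0 sector and the cathepsins Ctsa, Ctsb, Ctsc, Ctsf, Ctsh and Ctsz. Members that are abundant in 1 group alone pass the read filter through that group, so these counts cover the 32 tested genes and not the 44.

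**Figure D1:**
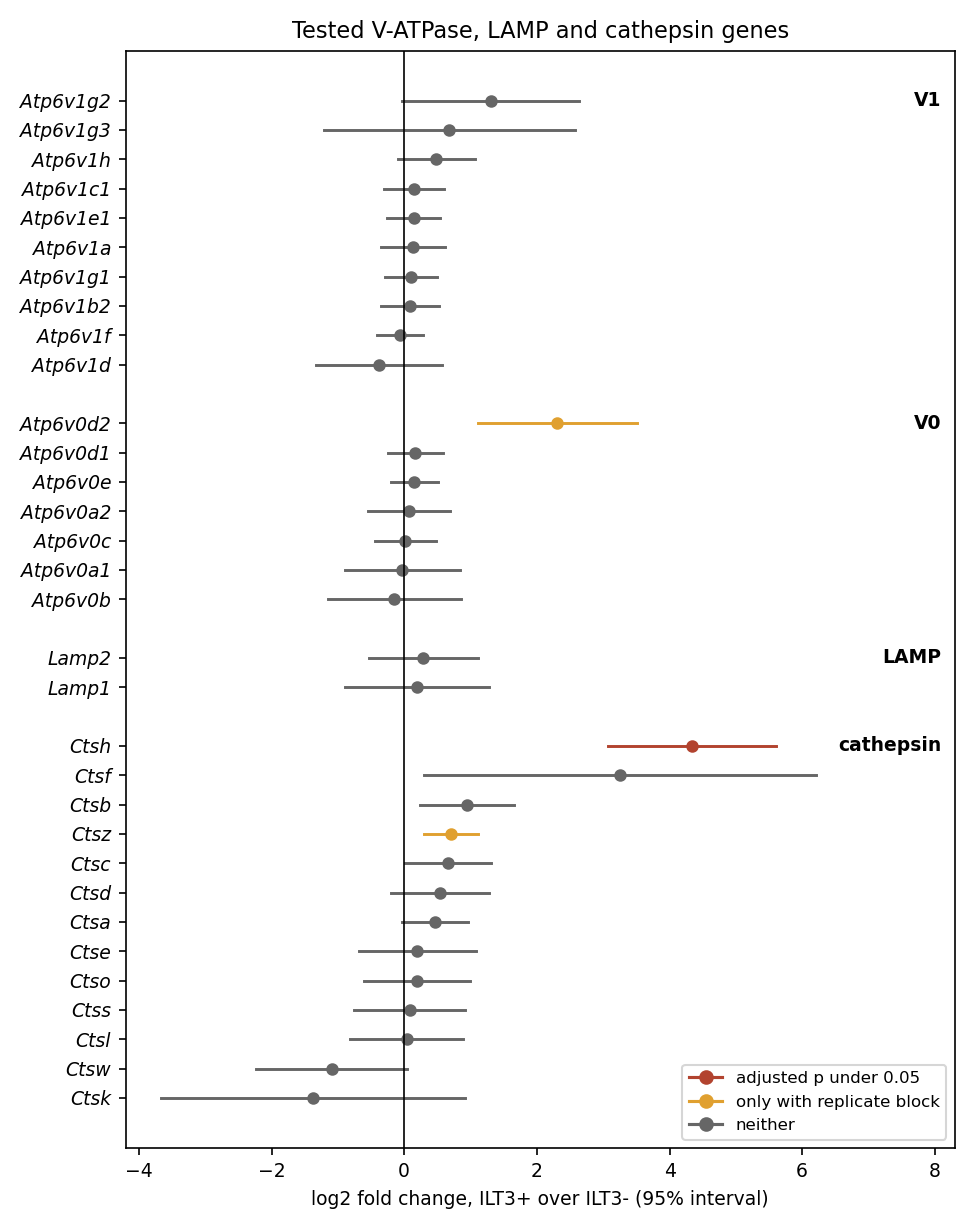
Log2 fold change of ILT3+ over ILT3- cells for the 32 tested members, by sector or family, with 95% intervals from edgeR's fit and colours for the calls. Most points lie near zero, and Ctsh at 4.34 is the 1 member called at an adjusted p under 0.05.

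The 12 members without a test were scarce or absent. No read was counted in any library for 7 of them: Atp6v1e2, Lamp5, Ctsg, Ctsj, Ctsm, Ctsq and Ctsr. Ctsg is the serine protease cathepsin G of neutrophil granules, and Ctsj, Ctsm, Ctsq and Ctsr belong to the rodent placental cathepsins. The other 5, Atp6v0a4, Atp6v0e2, Atp6v1b1, Atp6v1c2 and Lamp3, had 13 to 35 reads over all 6 libraries and 0 to 2.40 CPM in any of them. Atp6v0a4 and Atp6v1b1 are the pump subunits of acid-secreting kidney cells, and Lamp3 is known from mature human dendritic cells. For a gene without reads, 3 reads in a library, or 0.218 to 0.360 CPM, are the limit that counting allows.

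In the V1 sector, none of the 10 tested subunits was called (edgeR; 0 with an unadjusted p under 0.05, 0 by DESeq2 and 0 by limma voom). Their median log2 fold change was 0.13. The 3 with the highest levels per exon length were Atp6v1f, Atp6v1g1 and Atp6v1d. Atp6v1f, a subunit of the central rotor, had 127, 127 and 128 CPM in ILT3+ samples and 139, 134 and 127 CPM in ILT3- samples. Its log2 fold change was -0.07, with a 95% interval of -0.41 to 0.28 and an adjusted p of 0.909 in edgeR's test. Per exon length, as RPKM computed from exon reads and exon length, it stood at 118 ± 0.894 in ILT3+ and 122 ± 4.70 in ILT3- samples (SD, n = 3 each).

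Atp6v1g1, part of the peripheral stalk, had 83.7, 88.9 and 100 CPM in ILT3+ samples and 78.2, 84.8 and 91.1 CPM in ILT3- samples. The groups overlapped, and its log2 fold change was 0.10. Of its reads, 64.5% were unique to the gene. Atp6v1d, the rotor shaft, had 67.9, 112 and 85.6 CPM in ILT3+ samples and 50.9, 172 and 124 CPM in ILT3- samples. The ILT3- samples spread over a wider range than the ILT3+ samples, and the log2 fold change was -0.38 ± 0.41 (SE).

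The catalytic subunit Atp6v1a had 88.3, 57.9 and 70.2 CPM in ILT3+ samples and 60.1, 67.9 and 70.1 CPM in ILT3- samples. Its nucleotide-binding partner Atp6v1b2 had 99.3, 117 and 113 CPM in ILT3+ samples and 82.3, 110 and 116 CPM in ILT3- samples. For both, the groups overlapped and the log2 fold changes were 0.13 and 0.09. Atp6v1c1 and Atp6v1e1, which join the stalk, had log2 fold changes of 0.15 and 0.14. Atp6v1h, the subunit that couples V1 to V0, had 103, 65.4 and 71.8 CPM in ILT3+ samples and 71.6, 46.7 and 53.0 CPM in ILT3- samples. ILT3+ sample 2 lay below ILT3- sample 1, and the log2 fold change was 0.49 (95% interval -0.10 to 1.07, adjusted p = 0.470 by edgeR's test). Between samples of the same number it was higher in ILT3+ cells in all 3 pairs, and with the replicate block the interval was 0.13 to 0.83 and the adjusted p 0.116 in edgeR. On exon reads its log2 fold change was 0.71 (95% interval 0.12 to 1.30, adjusted p = 0.266 by edgeR's test). The 2 scarce G paralogs Atp6v1g2 and Atp6v1g3 had log2 fold changes of 1.31 and 0.68, with adjusted p of 0.374 and 0.810 in edgeR's test of gene reads without the block. Atp6v1g2 overlaps Nfkbil1, and 70.1% of the Atp6v1g3 reads were intronic.

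Atp6v0d2 apart, the V0 subunits had small differences too. None of its 7 tested subunits was called by edgeR (1 with an unadjusted p under 0.05; DESeq2 called 1 and limma voom 0), and the median log2 fold change was 0.07. Atp6v0c, which builds the proton-carrying ring, had 169, 197 and 181 CPM in ILT3+ samples and 139, 207 and 195 CPM in ILT3- samples. Its log2 fold change was 0.02, with an interval of -0.45 to 0.48, and 13.4% of its reads were unique to the gene, so near-identical copies may share them. Atp6v0d1, the widely expressed form of the d subunit that links ring and rotor, had 94.5, 102 and 93.5 CPM in ILT3+ samples and 71.0, 93.5 and 93.2 CPM in ILT3- samples. Its lowest ILT3+ sample lay just at the level of its 2 upper ILT3- samples, and the log2 fold change was 0.17 (interval -0.24 to 0.58). Atp6v0e, a small membrane subunit, had 115, 114 and 106 CPM in ILT3+ samples and 97.3, 97.9 and 107 CPM in ILT3- samples, with a log2 fold change of 0.15.

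Atp6v0b, a second ring protein, had 29.1, 46.3 and 56.2 CPM in ILT3+ samples and 21.3, 66.9 and 57.4 CPM in ILT3- samples. The lowest value in each group was in sample 1, and the log2 fold change was -0.15. Of the Atp6v0b reads, 47.0% were unique to the gene. The a subunit forms Atp6v0a1 and Atp6v0a2, which place the pump in particular membranes, had log2 fold changes of -0.03 and 0.07. Reads of Atp6v0a1 were 51.0% intronic, and on exon reads its log2 fold change was 0.46 (95% interval -0.84 to 1.77). Taking V1 and V0 together, 15 subunits had at least 10 CPM on average. On gene reads the upper bound of the 95% interval lay below a 2-fold rise for 13 of these. The exceptions were Atp6v0d2, and Atp6v1h with a bound of 1.07 in log2. On exon reads the bound of Atp6v1h was 1.30, and Atp6v0a1 was a further exception at 1.77. For 11 of the 15 the whole interval on gene reads lay within 2-fold either way.

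Atp6v0d2 is the tissue-restricted form of the d subunit, known from osteoclasts, macrophages and dendritic cells. The gene lies at chr4:19876841-19922605 on the minus strand of GRCm38. It had 15.1, 37.7 and 38.6 CPM in ILT3+ samples 1, 2 and 3, against 4.69, 3.93 and 9.74 CPM in ILT3- samples. Every ILT3+ sample lay above every ILT3- sample, and the lowest ILT3+ value was in sample 1, the library with the high macrophage markers. The means were 30.5 ± 13.3 CPM in ILT3+ and 6.12 ± 3.16 CPM in ILT3- samples (SD, n = 3 each).

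Atp6v0d2 differed by a log2 fold change of 2.31 ± 0.52 (SE), a 4.96-fold difference, with an adjusted p of 0.0713 in edgeR's test, so it was not called. With the replicate block the adjusted p was 0.0230. Without both samples numbered 1 the log2 fold change was 2.50 and the adjusted p 0.0197 in edgeR. In that fit 5.64% of all tested genes were called, and 2 members, Atp6v0d2 and Ctsh. On exon reads the adjusted p was 0.102, and 5 of the 16 alternative settings called the gene, with adjusted p from 0.000285 to 0.244. The dendritic cell marker sum given above was also higher in every ILT3+ sample. So was the macrophage marker sum with Axl, but not without it. The part of either in this difference was not tested.

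Per exon length, Atp6v0d2 made up 8.75%, 19.5% and 19.7% of the d subunit reads in ILT3+ samples 1, 2 and 3, against 5.02%, 1.82% and 6.39% in ILT3- samples. The mean shares were 16.0 ± 6.24% in ILT3+ and 4.41 ± 2.34% in ILT3- samples (SD, n = 3 each), and the remainder was Atp6v0d1. So the ubiquitous d1 form made up most of the d subunit reads in both groups. In the a subunit, Tcirg1 (also called a3, the form of osteoclasts and late endosomes) made up 46.2%, 57.5% and 37.2% in ILT3+ samples, against 56.1%, 45.7% and 34.1% in ILT3- samples. Atp6v0a2 made up 45.6%, 39.3% and 58.8% in ILT3+ samples, against 34.7%, 50.7% and 63.3% in ILT3- samples. For both a forms the groups overlapped. The remaining subunits with paralogs rested on 1 gene in every library: Atp6v0e, Atp6v1b2, Atp6v1c1, Atp6v1e1 and Atp6v1g1 each held at least 95.5% of their subunit's reads per exon length.

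**Figure D2:**
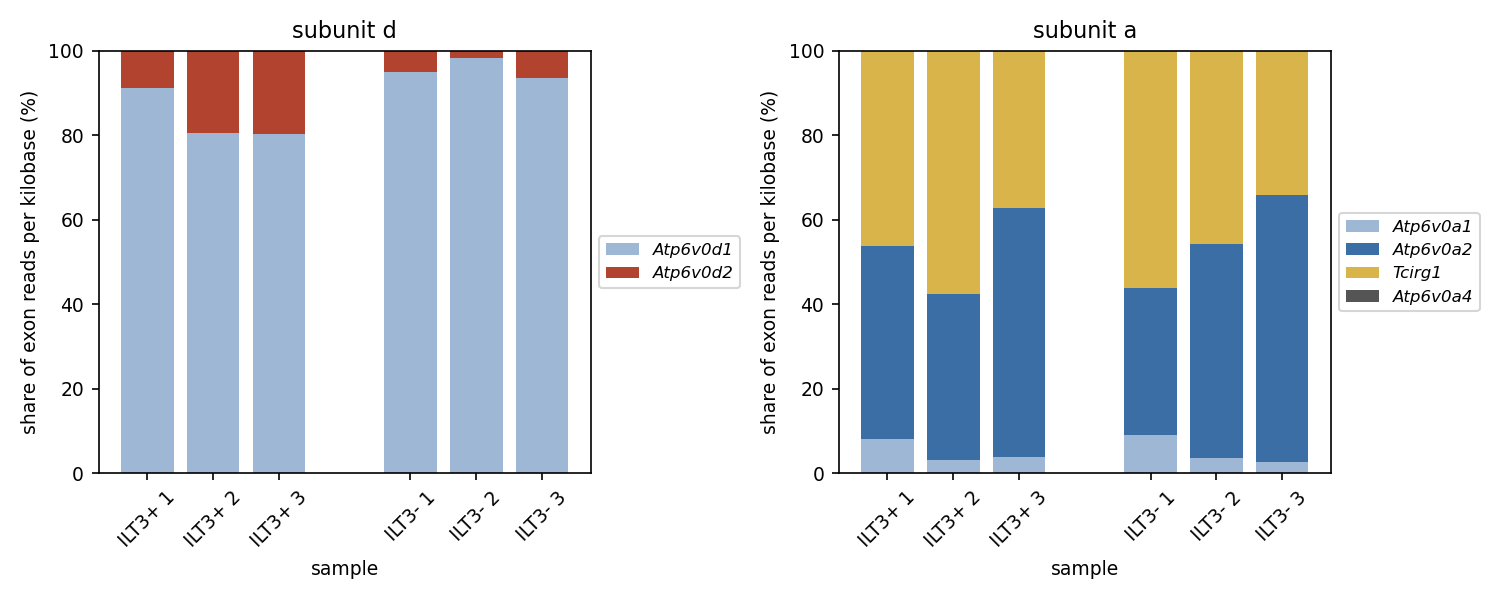
Share of each paralog in the exon reads per kilobase of the V-ATPase subunits d and a, in percent, as 1 stacked bar for each of the 3 ILT3+ and the 3 ILT3- samples. Atp6v0d2 holds 8.75% to 19.7% of the d subunit reads in ILT3+ samples and 1.82% to 6.39% in ILT3- samples, while the shares of the a subunit forms overlap between the groups.

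Lamp1 and Lamp2, the main glycoproteins of the lysosomal membrane, overlapped between the groups. Lamp1 had 44, 18.7 and 15 CPM in ILT3+ samples and 18.5, 32.3 and 17.3 CPM in ILT3- samples. ILT3+ sample 1 was the highest of the 6, and ILT3+ sample 3 the lowest. The log2 fold change was 0.19 (95% interval -0.89 to 1.27, adjusted p = 0.916 in edgeR's test) and -0.53 without both samples numbered 1, which is not a called direction. Lamp2, at chrX:38401357-38456454 on the minus strand, had 85.7, 99.5 and 118 CPM in ILT3+ samples and 41.3, 86.3 and 120 CPM in ILT3- samples. ILT3- sample 1 was the lowest, and the log2 fold change was 0.29 (95% interval -0.53 to 1.12). Neither gene was called by edgeR, DESeq2 or limma voom, and 0 of the 2 had an unadjusted p under 0.05 in edgeR.

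Many lysosomal genes carry binding sites of the transcription factor TFEB and its relatives, which read the E-box CACGTG and, in the CLEAR element, a longer palindrome with GT before the E-box and AC after it. RefSeq promoter sequences (GRCm38.p6), from 250 bases before to 50 after the gene start, matched 34 of the 44 members, 22 of them tested. CACGTG reads the same on both strands. It was found in 8 of the 34 member promoters, or 23.5%, against 7.24% of all 27025 promoters. Among tested genes it was in 8 of 22 member promoters, or 36.4%, against 10.1% of 9510. With flanks, TCACGTGA, which contains the E-box, was in 4 of the 34, or 11.8%, against 1.01% of all promoters. The CLEAR palindrome was in 0 of the 34 and in 0.359% of all promoters, which says only that these letters are not in these windows.

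Below, the promoters of Lamp1, Atp6v0b and Ctsd are shown because they hold more than 1 E-box, and that of Ctsz, a cathepsin called with the block, because it holds none. Capitals mark CACGTG, and each sequence runs 5′ to 3′ on the strand of its gene. The Lamp1 window is chr8:13158911-13159210 on the plus strand. The minus-strand windows are chr4:117887280-117887579 for Atp6v0b, chr7:142387778-142388077 for Ctsd and chr2:174438990-174439289 for Ctsz.
Lamp1: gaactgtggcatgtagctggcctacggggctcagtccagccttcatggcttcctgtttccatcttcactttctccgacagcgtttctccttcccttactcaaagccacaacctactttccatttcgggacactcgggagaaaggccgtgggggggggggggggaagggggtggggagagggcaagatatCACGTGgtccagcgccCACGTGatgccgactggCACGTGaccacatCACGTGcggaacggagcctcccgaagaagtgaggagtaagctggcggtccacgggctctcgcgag
Atp6v0b: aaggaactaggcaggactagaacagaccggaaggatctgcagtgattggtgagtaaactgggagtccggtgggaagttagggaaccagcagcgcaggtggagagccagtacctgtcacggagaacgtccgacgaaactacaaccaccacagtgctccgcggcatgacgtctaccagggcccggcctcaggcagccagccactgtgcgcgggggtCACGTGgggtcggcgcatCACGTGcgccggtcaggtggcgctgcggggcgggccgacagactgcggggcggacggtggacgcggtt
Ctsd: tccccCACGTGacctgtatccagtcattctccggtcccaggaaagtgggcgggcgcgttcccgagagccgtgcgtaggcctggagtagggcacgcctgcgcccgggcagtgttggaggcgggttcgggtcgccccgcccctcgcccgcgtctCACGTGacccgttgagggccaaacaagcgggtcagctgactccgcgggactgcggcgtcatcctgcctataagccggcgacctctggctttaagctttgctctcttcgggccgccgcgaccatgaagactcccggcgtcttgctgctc
Ctsz: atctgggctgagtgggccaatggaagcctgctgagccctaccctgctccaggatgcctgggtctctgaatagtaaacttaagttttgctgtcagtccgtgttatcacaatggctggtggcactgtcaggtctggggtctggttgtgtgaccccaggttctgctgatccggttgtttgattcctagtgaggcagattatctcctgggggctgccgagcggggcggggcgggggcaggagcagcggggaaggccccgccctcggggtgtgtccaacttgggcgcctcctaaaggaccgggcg

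Lamp1 holds 4 E-boxes close to its start, and Atp6v0b and Ctsd hold 2 each. The other 5 promoters with the motif were those of Atp6v0d1, Ctsl, Atp6v1a, Atp6v0e and Ctsf. The 8 members with an E-box had a median log2 fold change of 0.16, the same as all tested members to 2 decimals. None of the 8 was called by edgeR, with or without the block, or by DESeq2 or limma voom, and 1 of them, Ctsf, had an unadjusted p under 0.05 in edgeR. Ctsh and Atp6v0d2 had no matched promoter sequence. Of the members called in any of these fits, only Ctsz could therefore be searched for the motif, so E-boxes and calls cannot be compared. A match of letters is a description and not evidence of binding.

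Most of the larger differences of the set were among the cathepsins. Of the 13 tested, 1 was called higher by edgeR, 5 (38.5%) had an unadjusted p under 0.05, against 13.8% of all tested genes, and the median log2 fold change was 0.46. Without both samples numbered 1 that median was 0.31. DESeq2 called 2 cathepsins and limma voom 0. Among the 5 at an unadjusted p under 0.05 in edgeR was Ctsf, which had 0 to 2.11 CPM in ILT3- samples. It passed the read filter through the ILT3+ samples, so the share of 38.5% is no test of the family.

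Ctsh encodes cathepsin H, a cysteine protease that acts mainly as an aminopeptidase. The gene lies at chr9:90054152-90076089 on the plus strand. It had 17.9, 67.3 and 38.1 CPM in ILT3+ samples 1, 2 and 3, from 191, 837 and 477 reads, against 2.04, 2.44 and 1.60 CPM in ILT3- samples, from 17, 31 and 22 reads. Even the lowest ILT3+ sample was several times above the highest ILT3- sample. The means were 41.1 ± 24.8 CPM in ILT3+ and 2.03 ± 0.419 CPM in ILT3- samples (SD, n = 3 each).

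Ctsh rose 20.2-fold, a log2 fold change of 4.34 ± 0.55 (SE) with a 95% interval of 3.07 to 5.61; edgeR gave an adjusted p of 0.0113. It was called in 11 of the 16 alternative settings, with log2 fold changes from 3.80 to 4.73. Without both samples numbered 1 its log2 fold change was 4.73 and its adjusted p 0.00157 in edgeR's test. The call was lost without ILT3+ sample 2, ILT3+ sample 3, ILT3- sample 2 or ILT3- sample 3, at adjusted p of 0.0511, 0.0504, 0.0638 and 0.0721, and with limma voom at 0.0502. ILT3+ sample 1, with the highest macrophage marker sum, had the lowest Ctsh of the ILT3+ samples. The dendritic cell marker sum was higher in all ILT3+ than in all ILT3- samples, as Ctsh was. So was the macrophage marker sum with Axl, but not without it. For the B cell marker sum the groups nearly met, at 30.3 CPM in the lowest ILT3+ and 29.9 CPM in the highest ILT3- sample. Its highest value, 70.4 CPM, was in ILT3+ sample 1, where Ctsh was the lowest of the ILT3+ samples. The part of these sums in the result was not tested.

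**Figure D3:**
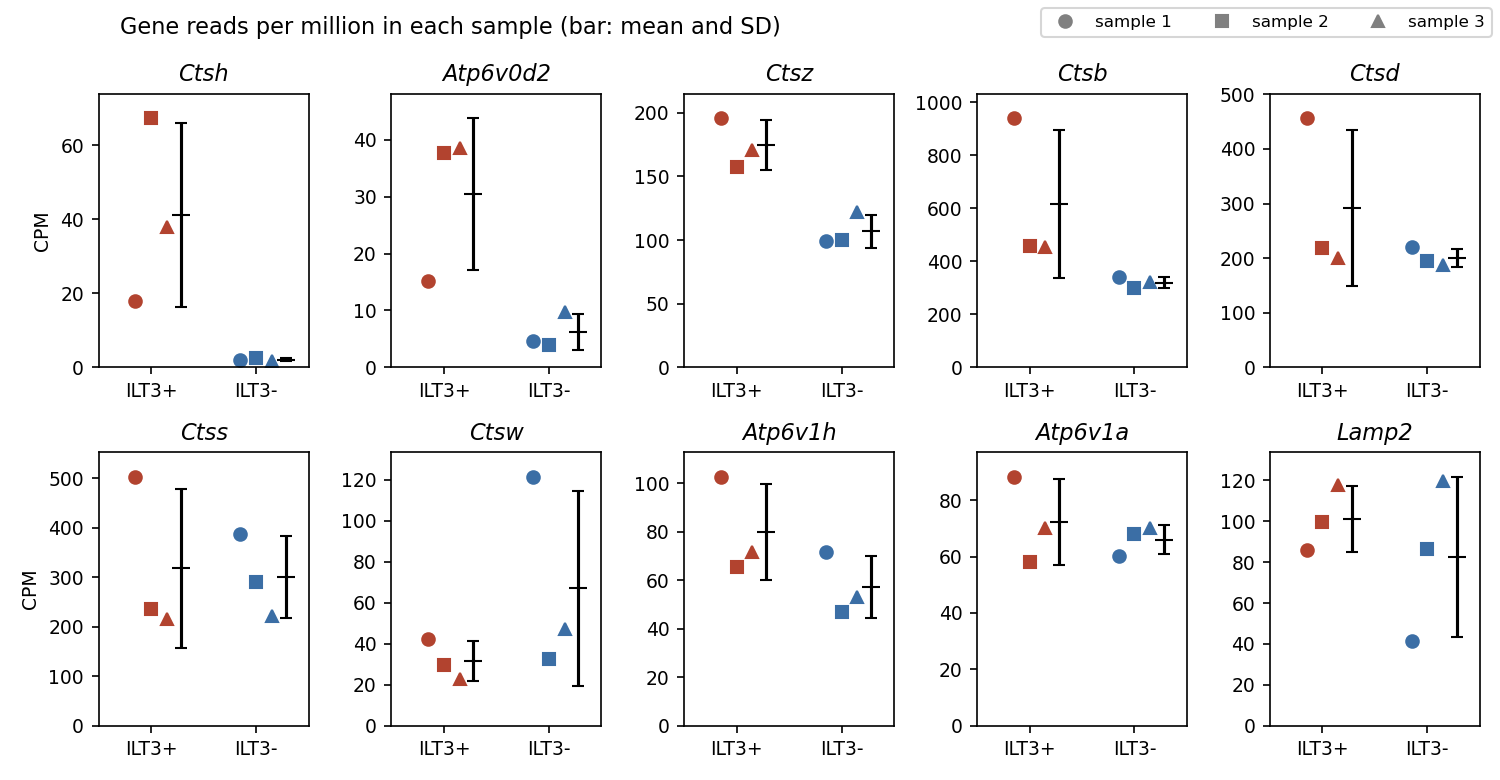
CPM of 10 members in ILT3+ (left) and ILT3- (right) samples, with 1 point per sample, its shape giving the sample number, and black bars for the mean and SD. Ctsh stands at 17.9 to 67.3 CPM in ILT3+ samples and 1.60 to 2.44 CPM in ILT3- samples, whereas the groups overlap for Ctss, Ctsd, Atp6v1a and Lamp2.

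Ctsz, a carboxypeptidase also known as cathepsin X, had 196, 158 and 171 CPM in ILT3+ samples, against 99.1, 99.8 and 122 CPM in ILT3- samples. The groups did not overlap, and the replicates lay close together. Its log2 fold change was 0.71 ± 0.18 (SE), a 1.63-fold difference, with an adjusted p of 0.0982 in edgeR's test and 0.0356 with the replicate block. DESeq2 gave 0.0132, and over the 16 alternatives the adjusted p lay between 0.0132 and 0.288, with 3 calls. Ctsz lies at chr2:174427493-174439039 on the minus strand and overlaps Nelfcd on the plus strand. Whether the counting used strand is not given in the sources used here, so reads of the 2 genes may be mixed.

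Ctsb, the endopeptidase and peptidyl-dipeptidase cathepsin B, had 939, 456 and 453 CPM in ILT3+ samples, against 340, 297 and 321 CPM in ILT3- samples. All ILT3+ samples lay above all ILT3- samples, with ILT3+ sample 1 far above the rest. The log2 fold change was 0.95 ± 0.30 (SE) with an adjusted p of 0.207 in edgeR's test, and 0.59 with an adjusted p of 0.0661 without both samples numbered 1. Ctsb made up 34.3%, 29.9% and 31.6% of the summed cathepsin CPM in ILT3+ samples, against 21.7%, 24.6% and 27.0% in ILT3- samples. Those shares did not overlap either. Ctsb overlaps Fdft1 on the other strand.

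Ctsa, a serine carboxypeptidase that also protects beta-galactosidase and neuraminidase, had 178, 125 and 119 CPM in ILT3+ samples and 118, 88.2 and 100 CPM in ILT3- samples. The lowest ILT3+ sample and the highest ILT3- sample were nearly equal. The difference was 0.46 ± 0.22 (SE) in log2, with an adjusted p of 0.407 in edgeR's test. Ctsa overlaps Neurl2 and Pltp on the other strand. Ctsc encodes the dipeptidyl peptidase that activates granule serine proteases. It had 143, 75.4 and 96.1 CPM in ILT3+ samples and 74.4, 50.6 and 75.1 CPM in ILT3- samples. These ranges touched as closely, and the log2 fold change was 0.65 ± 0.28 (SE) with an adjusted p of 0.358 in edgeR's test. Ctsf, a cysteine protease, was scarce, with 18.4, 4.18 and 2.47 CPM in ILT3+ samples and 0, 0.393 and 2.11 CPM in ILT3- samples. The log2 estimate was 3.25 ± 1.28 (SE), and 1.43 without both samples numbered 1, with adjusted p of 0.308 and 0.442 in edgeR.

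Ctss had the highest level per exon length of the cathepsins, followed over all 6 samples by Ctsd, Ctsb and Ctsz. Ctsb stood at 128 ± 57.1 RPKM in ILT3+ and 64.9 ± 3.34 RPKM in ILT3- samples, and Ctsz at 119 ± 13.5 RPKM in ILT3+ and 73.1 ± 7.89 RPKM in ILT3- samples (SD, n = 3 each). Ctsd stood at 114 ± 56.7 RPKM in ILT3+ and 78.6 ± 6.46 RPKM in ILT3- samples. Ctsb thus had the highest mean of these 3 in ILT3+ samples and the lowest in ILT3- samples, and the ranges of the 3 genes overlapped in ILT3+ samples. Its highest mean rested on ILT3+ sample 1, at 193 RPKM. In ILT3+ samples 2 and 3 Ctsb stood at 94.9 and 94.2 RPKM, below Ctsz at 107 and 116 RPKM. Ctss, the cysteine protease that processes the invariant chain in antigen-presenting cells, stood at 218 ± 119 RPKM in ILT3+ and 207 ± 62.0 RPKM in ILT3- samples (SD, n = 3 each). It had 502, 236 and 215 CPM in ILT3+ samples and 387, 291 and 221 CPM in ILT3- samples. In both groups sample 1 was the highest, and the log2 fold change was 0.08 (95% interval -0.76 to 0.92, adjusted p = 0.959 in edgeR's test). Ctsd, an aspartic protease and a common lysosomal marker, had 456, 218 and 200 CPM in ILT3+ samples and 219, 194 and 187 CPM in ILT3- samples. Apart from ILT3+ sample 1 the 5 samples were alike. The log2 fold change of 0.54 (95% interval -0.20 to 1.28) was 0.16 without both samples numbered 1. Ctsd overlaps Ifitm10 on the same strand.

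The remaining tested cathepsins overlapped between the groups. Ctsw, known from cytotoxic lymphocytes, had 42.0, 29.7 and 22.7 CPM in ILT3+ samples and 121, 32.4 and 47.2 CPM in ILT3- samples. Its log2 fold change was -1.09 ± 0.49 (SE), with an adjusted p of 0.387 in the edgeR test of all samples. Without both samples numbered 1 it was -0.58. Between samples of the same number Ctsw was lower in the ILT3+ sample in each pair. With the replicate block its interval was -1.61 to -0.22 and the adjusted p 0.132 in edgeR, so it was not called. The log2 fold changes of Ctsl, Ctse and Ctso were 0.04, 0.20 and 0.20. Reads of Ctse were 79.7% intronic and 63.4% unique to the gene. Ctsk, the collagen-degrading protease of osteoclasts, had 0.798 to 2.01 CPM in ILT3+ samples and 0.721 to 8.17 CPM in ILT3- samples, with 77.8% intronic reads.

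Summed levels show what single genes add up to. The V1 genes summed to 755, 759 and 760 CPM in ILT3+ samples and to 629, 784 and 771 CPM in ILT3- samples. The V0 genes summed to 535, 580 and 576 CPM in ILT3+ samples and to 416, 566 and 572 CPM in ILT3- samples. The Lamp genes summed to 130, 118 and 133 CPM in ILT3+ samples and to 60.2, 119 and 137 CPM in ILT3- samples. In all 3 families ILT3- sample 1 was the lowest of the 6, and the remaining samples lay close together. Cathepsins summed to 2736, 1526 and 1435 CPM in ILT3+ samples and to 1566, 1206 and 1187 CPM in ILT3- samples. Here ILT3+ sample 1 was the highest, and ILT3- sample 1 lay above both other ILT3+ samples. Between samples of the same number the cathepsin sum was higher in the ILT3+ sample in all 3 pairs.

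The log2 ratios of the group means of these CPM sums were 0.06 for V1, 0.12 for V0, 0.27 for Lamp genes and 0.53 for cathepsins. Without both samples numbered 1 they were -0.03, 0.02, -0.03 and 0.31. Per exon length the ratios over all samples were 0.07, 0.18, 0.23 and 0.39 in log2. The macrophage marker sum was highest in ILT3+ sample 1, as the cathepsin sum was, and its part in that sum was not tested.

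**Figure D4:**
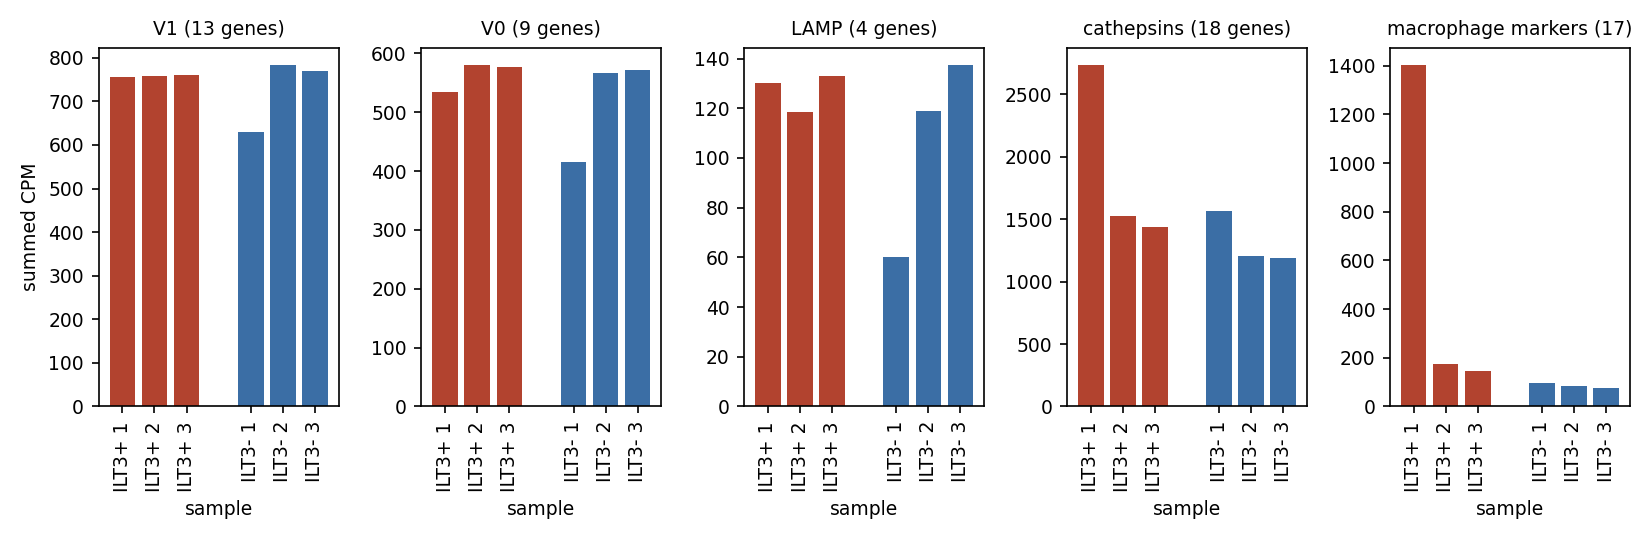
Summed CPM of the V1 genes, V0 genes, Lamp genes, cathepsins and macrophage markers, with 1 bar for each ILT3+ (red) and ILT3- (blue) sample. The pump and Lamp sums are lowest in ILT3- sample 1, and the cathepsin sum is highest in ILT3+ sample 1, at 2736 CPM, as is the macrophage marker sum, at 1403 CPM.

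Other genes of the lysosome were examined in 9 lists of 161 genes, of which 160 were in the files and 148 were tested. edgeR called 3 of these, or 2.03%, against 2.31% of all tested genes. The median log2 fold change was 0.14, against -0.02 among all tested genes. The 3 called genes were the hydrolase Scpep1 and the transporter Slc15a3, both higher in ILT3+ cells, and the sorting receptor Igf2r, lower in ILT3+ cells. With the block 12 were called, or 8.11%, against 6.81% of all genes. The counts of each list below are to be read beside the shares of all tested genes. Those were 2.31% by edgeR, 13.8% at an unadjusted p under 0.05, 6.81% with the block, 7.08% by DESeq2 and 2.31% by limma voom. Leaving out ILT3+ sample 2 or ILT3+ sample 3 left 0 called by edgeR, with 21 and 22 at an unadjusted p under 0.05, and leaving out ILT3- sample 2 or ILT3- sample 3 left Igf2r alone. With limma voom the 3 calls were Igf2r, Scpep1 and Ncoa7, and that of Slc15a3 was lost.

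Among genes that assemble or assist the V-ATPase, 0 of 11 were called by edgeR (1 at an unadjusted p under 0.05, and 1 each by DESeq2, by limma voom and with the block), with a median log2 fold change of 0.28. Ncoa7, a pump-binding protein of the TLDc family, had 320, 253 and 201 CPM in ILT3+ samples and 144, 81.2 and 87.9 CPM in ILT3- samples. Its groups did not overlap, and the log2 fold change was 1.31 ± 0.28 (SE), with an adjusted p of 0.0620 in edgeR's test and 0.0061 with the block. Tcirg1 had 97.0, 115 and 59.1 CPM in ILT3+ samples and 69.3, 72.0 and 54.0 CPM in ILT3- samples, with a log2 fold change of 0.48. Wdr7 and Rogdi, which belong to the complex that reassembles the pump, had log2 fold changes of 0.41 and 0.73.

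Of 44 tested soluble hydrolases, edgeR called 1 higher and 0 lower (5 at an unadjusted p under 0.05), and with the block 3 higher and 1 lower; DESeq2 called 3 and limma voom 1. The median log2 fold change was 0.21. Scpep1, a serine carboxypeptidase, had 37.9, 54.8 and 39.3 CPM in ILT3+ samples and 6.25, 12.3 and 10.5 CPM in ILT3- samples. Every ILT3+ sample lay well above every ILT3- sample. Scpep1 rose by 2.18 ± 0.34 (SE) in log2, with an adjusted p of 0.0202 in edgeR's test, and 51.4% of its reads were unique to it. Lgmn, the asparaginyl protease that matures several cathepsins, had 115, 39.6 and 23.2 CPM in ILT3+ samples and 23.4, 13.7 and 10.5 CPM in ILT3- samples. The ranges met at 23.2 and 23.4 CPM, and the log2 fold change of 1.90 had an adjusted p of 0.202 in edgeR's test and 0.0205 with the block. The ceramidase Asah1 and the acid nuclease Dnase2a had log2 fold changes of 0.96 and 0.79, with adjusted p of 0.230 and 0.168 in edgeR. The other 2 hydrolases called with the block, named after their values were seen, were the activator protein Gm2a, at 0.74 in log2 with adjusted p of 0.463 in edgeR and 0.0295 with the block, and the acid phosphatase Acp5, at -0.81 with 0.458 and 0.0253.

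Of 30 other lysosomal membrane proteins, edgeR called 1 higher and 0 lower, against 2.31% of all tested genes called. In edgeR 8 were at an unadjusted p under 0.05, against 13.8% of all tested genes. With the block 2 were called higher and 1 lower, against 6.81%. DESeq2 called 4, against 7.08%, and limma voom 0. The median log2 fold change was 0.02. Slc15a3, a histidine and peptide transporter, had 14.3, 30.3 and 46.4 CPM in ILT3+ samples and 1.92, 2.75 and 3.78 CPM in ILT3- samples. The groups were well apart, at 3.41 ± 0.53 (SE) in log2, and edgeR gave an adjusted p of 0.0209, limma voom one of 0.0557. The tetraspanin Cd63 had a log2 fold change of 3.50 at low levels, 2.63 to 3.47 CPM in ILT3+ samples and 0.0786 to 0.601 CPM in ILT3- samples, with an adjusted p of 0.0856 in edgeR and 0.0486 with the block. Slc11a1, an iron transporter of phagocytes, had 39.0, 2.81 and 3.51 CPM in ILT3+ samples and 0, 0.629 and 0.0727 CPM in ILT3- samples, a pattern high in the same library as the macrophage markers. Sidt2, a nucleic acid transporter, had 62.9, 72.9 and 69.5 CPM in ILT3+ samples and 121, 107 and 102 CPM in ILT3- samples. It was lower in each ILT3+ sample, by -0.69 in log2, at an adjusted p of 0.0930 in edgeR and 0.0478 with the block.

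In the sorting list, edgeR called 1 of 14 genes lower and 0 higher (3 at an unadjusted p under 0.05), and with the block 1 lower and 1 higher; DESeq2 and limma voom called 1 each. The median log2 fold change was 0.10. Igf2r, the cation-independent mannose 6-phosphate receptor that carries newly made hydrolases to the lysosome, had 91.5, 78.4 and 87.4 CPM in ILT3+ samples and 242, 258 and 219 CPM in ILT3- samples. Igf2r fell by 1.48 ± 0.17 (SE) on the log2 scale, with an adjusted p of 0.0076 in edgeR's test. Its cation-dependent counterpart M6pr had 456, 505 and 594 CPM in ILT3+ samples and 291, 289 and 428 CPM in ILT3- samples. M6pr was higher in each ILT3+ sample, by 0.62 in log2, at an adjusted p of 0.249 in edgeR and 0.0223 with the block. The sorting receptor Sort1 and the adaptor Gga2 had log2 fold changes of 2.66 and -1.0, and adjusted p of 0.278 and 0.615 in edgeR.

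Cathepsin inhibitors were tested in 3 of 7 cases, with 0 called by edgeR, 2 with an unadjusted p under 0.05, and 2 called with DESeq2, 2 with the block and 0 with limma voom. Cst3, the secreted cystatin C, had 129, 103 and 89.9 CPM in ILT3+ samples and 59.1, 66.6 and 53.5 CPM in ILT3- samples. Its groups did not overlap, and its log2 fold change was 0.84 ± 0.20 (SE), with an adjusted p of 0.0856 in edgeR and 0.0314 with the block. Cstb, the cytosolic stefin B, had 41.6, 108 and 110 CPM in ILT3+ samples and 28.8, 35.5 and 44.3 CPM in ILT3- samples. ILT3+ sample 1 lay within the ILT3- range, and the log2 fold change of 1.26 had an adjusted p of 0.178 in edgeR and 0.0403 with the block. Cst7 had a log2 fold change of 0.40.

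Of 13 tested genes of endolysosomal tethering and fusion, 0 were called by edgeR (1 at an unadjusted p under 0.05, 1 by DESeq2, 0 by limma voom), with a median log2 fold change of 0.06. Vps18 and Vps33a, of the tethering core, had log2 fold changes of -0.42 and 0.33, the small GTPase Rab5a had -0.40, and the SNARE Vamp8 had 0.57. Of 18 genes of the TFEB family and of lysosomal mTORC1 control, 0 were called by edgeR (1 at an unadjusted p under 0.05, 0 by DESeq2 and 0 by limma voom), with a median of 0.01. Mitf, a relative of TFEB, had 26.5, 16.4 and 18.7 CPM in ILT3+ samples and 14.8, 4.71 and 3.63 CPM in ILT3- samples. Its groups did not overlap, and the log2 fold change was 1.43 with an adjusted p of 0.323 in edgeR. Among the fits with samples left out, edgeR called Mitf without ILT3- sample 1 and without both samples numbered 1. The folliculin partners Fnip1 and Fnip2 had log2 fold changes of -0.25 and 0.89, and the mTORC1 subunit Rptor had -0.21. Of 15 autophagy genes, 0 were called by edgeR (1 at an unadjusted p under 0.05, 1 by DESeq2, 0 by limma voom), with a median of 0.04. Sqstm1, Atg7, Wipi1 and Wipi2 had log2 fold changes of 0.46, 0.57, 1.62 and -0.93. None of the 5 placental cathepsins whose symbols hold digits had enough reads for a test.

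**Figure D5:**
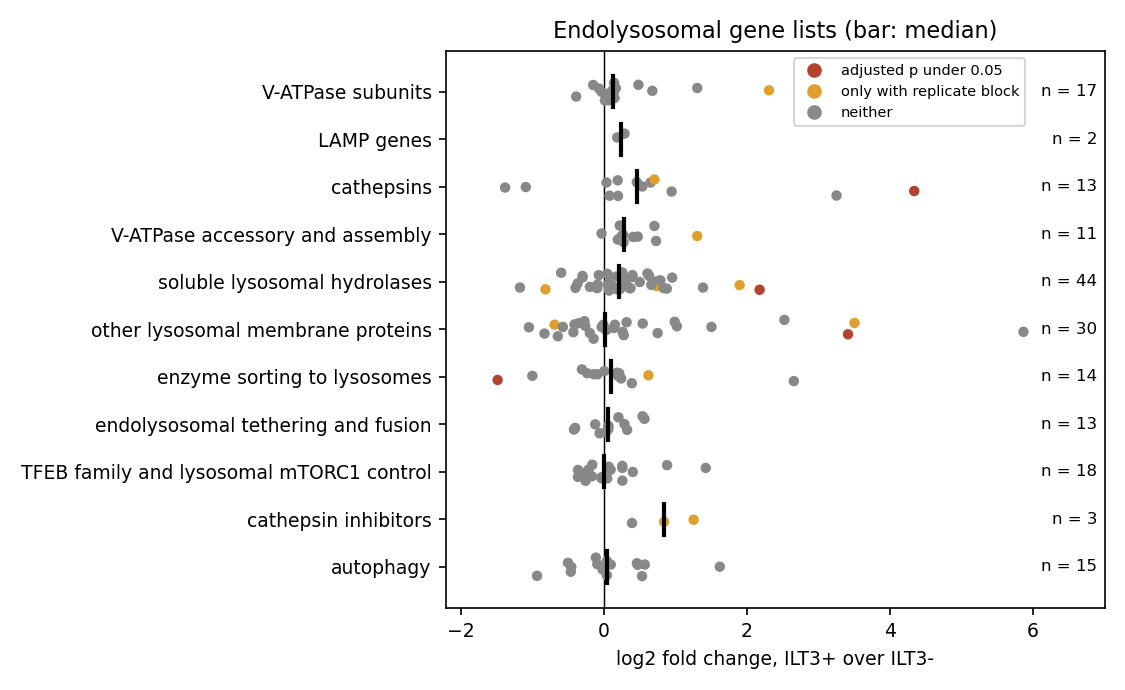
Log2 fold change of ILT3+ over ILT3- cells for each tested member and each tested gene of the pathway lists, 1 row per family or list, with a black bar at the median and colours for the calls. The genes scatter to both sides of zero, and the row medians lie above it, from 0.01 to 0.84. The 3 called list genes are Scpep1 and Slc15a3, higher in ILT3+ cells, and Igf2r, lower in ILT3+ cells.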

How the data were processed

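Total RNA of sorted cells was sequenced in 6 samples, 3 ILT3+ and 3 ILT3-. Full-length cDNA (SmartSeq V2) from 1 ng of RNA went into Nextera XT libraries, per the labels' protocols. The build was GRCm38, per the submitters' processing notes. The sources used here name no aligner, counter, annotation or use of strand. The authors deposited, per the file headers, total and unique counts of gene, exon and intron reads for each gene; their RPKM columns were not used here, and levels per exon length were computed from exon counts and the deposited lengths.

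Total gene counts (9334370 to 13648274 per library, 24.0% to 28.3% intronic) were tested between the groups in R 4.3.3 with edgeR 4.0.16, using TMM scaling, filterByExpr (at least 10 counts, 15 in total), robust quasi-likelihood fitting over all 13694 genes kept, and Benjamini-Hochberg adjustment at 0.05. SE is the log2 fold change over the root of F. Reads carry no molecular identifiers, so the limit of 3 reads covers counting error only. Each library pair differed by more than sampling noise. Alternatives were exon and unique counts, median-ratio scaling, no filter, DESeq2 1.42.0, limma 3.58.1 (voom), a replicate block and left-out samples. Tests were tried on simulated data with known changes.

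Both groups have samples 1, 2 and 3. Equal numbers deviated together, with correlations of 0.40, 0.26 and 0.27 that all exceed the bound of 0.1. The numbers were used as pairs in the fits with the replicate block. The labels do not state a pairing, and 2 crossed pairs among samples 2 and 3 also exceeded the bound (0.163 and 0.117). Because the labels state no pairing, the reported fit used no block. It called 1 of the 32 tested members, and the fit with the block called 3.

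Members and lists were chosen with earlier results of these data known. Named were members called by total gene reads, on exon reads or with the block, members of at least 10 CPM whose groups did not overlap, the 3 of each class with the highest level per exon length, members without a test, and up to 4 genes of each list by smallest p, plus called ones. Further members were named for their role after their values were seen. Of the list genes, 1 was not matched to the files. The values of 1 marker gene are not reported here.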

Additional observations from a re-analysis of the deposited data

How the results depend on the processing

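The member calls changed with the tool and the samples. Against 1 member called by edgeR, DESeq2 called 3, limma voom 0 (5 at an unadjusted p under 0.05), the fit without a filter 2, the fit without both samples numbered 1 called 2, and leaving out 1 sample gave 0 to 2. With the replicate block 3 members were called, and 2 on exon reads with the block, a fit chosen after seeing the data. The block changed no call of a member other than Atp6v0d2 and Ctsz. All genes called numbered 316 in the reported fit, 948 by DESeq2, 932 with the block, 700 on exon reads with the block, 204 on unique exon reads, 786 without both samples numbered 1, and 31 to 322 with 1 sample left out. For the pathway lists the 3 calls became 13 by DESeq2, 12 with the block and 11 on exon reads with the block. They became 7 without both samples numbered 1, and 0 to 6 with 1 sample left out. The share of all tested genes called rose as well. It went from 2.31% to 7.08% by DESeq2, to 6.81% with the block and to 5.64% without both samples numbered 1. The log2 ratio of summed Lamp levels per exon length was 0.23, and -0.18 without both samples numbered 1. The cause of these shifts was not tested. Of 506 member values under the 16 alternatives, 36 had another sign than in the reported fit, and 0 of these was a called value. Depth limits the scarce members: of the 12 without a test in the reported fit, 7 had no reads, and 5 were fitted in at least 1 alternative, with 0 called. Among these Atp6v1c2 was fitted in 6, at -3.38 in log2 with an adjusted p of 0.176 in edgeR without both samples numbered 1.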
